A study of Mus musculus with 6 samples.

Results

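Transforming growth factor beta (TGF-β) genes were followed in mouse bone marrow-derived mesenchymal stem cells (MSCs, adherent stromal cells of the marrow that can form bone, fat and cartilage cells) with and without the inflammatory cytokine TNF-α. The set held 10 genes chosen by symbol out of 15634 genes listed, namely the ligands Tgfb1, Tgfb2 and Tgfb3, the receptors Tgfbr1, Tgfbr2 and Tgfbr3, the signal carrier Smad3, the feedback inhibitors Smad7 and Skil, and the matrix gene Tgfbi. All 10 had enough counts to be tested. Unstimulated cells gave 3 libraries (Control), and cells given 10 ng/mL TNF-α for 24 h gave another 3 (TNF). Both groups came from wild-type C57BL/6J mice, with no transgene or deletion named in the labels, and the age of the mice is not given in the sources used here. The labels do not say whether the libraries of a group came from separate cultures or animals, so p-values measure only the spread between these samples, which may be technical.

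TGF-β is secreted in a latent complex and has to be released before it can bind its receptors. The ligand binds the type II receptor (Tgfbr2), which then activates the type I receptor (Tgfbr1), while betaglycan (Tgfbr3) presents the ligand and can also be shed as a decoy. The active receptor phosphorylates the SMAD proteins encoded by Smad2 and Smad3, which enter the nucleus with the common SMAD encoded by Smad4 and switch on matrix and contractile genes along with inhibitors of the pathway. In bone and marrow stroma TGF-β is known for recruiting osteoblast progenitors, restraining their late maturation and driving matrix production.

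In the TNF libraries Tgfb3, Tgfbr2, Tgfbr1 and Smad3 were lower and Tgfbi was higher, and the other 5 genes were not called (edgeR's quasi-likelihood test, Benjamini-Hochberg adjusted p under 0.05 over all 15547 genes tested). Tgfb3 was at 342 ± 5.66 CPM (counts scaled to library size) in Control and 146 ± 8.86 CPM in TNF, and Tgfbr2 at 583 ± 40.7 and 297 ± 7.92 CPM (mean ± SD, n = 3 libraries in each group here and below). Tgfbi had a fitted fold change of 2.04. Of the 10 genes 4 were called lower, where 16.4% of all genes tested were, and 1 was called higher, where 16.0% were. Called in either direction were 5 of 10, beside 32.4% of all genes. The log2 fold changes of the 10 genes had a median of -0.061, against -0.0046 over all genes tested. In bulk RNA, fewer cells of a type and less RNA per cell cannot be told apart.

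Over all genes tested, 2489 were called higher and 2550 lower. Scaling by library totals in place of the TMM factors called 1612 higher and 2571 lower, and left the same 5 TGF-β genes called. Total counts ran from 45629973 to 77142418 per library. Ribosomal 18S RNA took 19.4% of the counts of TNF library 2 and between 1.10% and 3.55% of the others, and mitochondrial mRNAs took 4.45% of Control library 2 and between 1.59% and 2.16% of the others. TNF response genes followed the labels, with Tnfaip3 at 15.1 ± 2.31 CPM in Control and 224 ± 19.4 CPM in TNF, Nfkbia at 35.5 ± 14.5 and 696 ± 186 CPM, and Ccl2 at 19.3 ± 3.29 and 2216 ± 282 CPM.

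**Figure D1:**
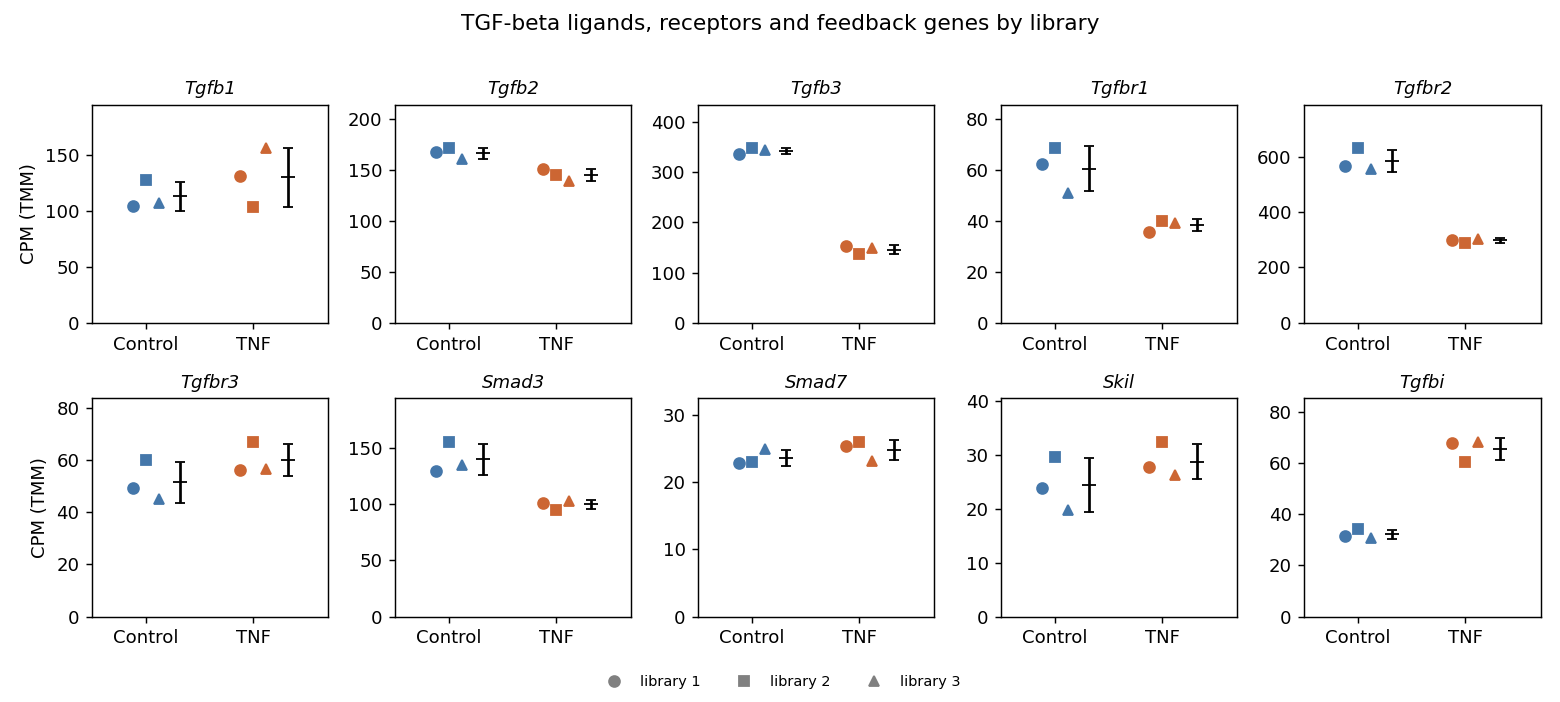
CPM (y axis, from 0) of each of the 10 genes in the 3 Control (blue) and 3 TNF (orange) libraries, with the mean and SD of each group in black. The TNF points of Tgfb2, Tgfb3, Tgfbr1, Tgfbr2 and Smad3 lie below every Control point, those of Tgfbi lie above, and those of Tgfb1, Smad7, Tgfbr3 and Skil overlap with Control.

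The upstream sequences of Tgfbr2 and Tgfbi are shown because these were the called genes with the largest fall and the largest rise among those with a single promoter entry. RefSeq's promoter table (GRCm38.p6, an older build than the GRCm39 the submitters name) gave entries for 6 of the 10 genes used here. Each sequence is the 250 bases before the annotated start, 5′ to 3′ on the gene's strand. Tgfbr2 lies at chr9:116175364-116175613 on the minus strand and Tgfbi at chr13:56609336-56609585 on the plus strand. Capitals mark CAGAC, the core of the SMAD-binding element, on either strand (GTCTG where it lies on the opposite strand).
Tgfbr2: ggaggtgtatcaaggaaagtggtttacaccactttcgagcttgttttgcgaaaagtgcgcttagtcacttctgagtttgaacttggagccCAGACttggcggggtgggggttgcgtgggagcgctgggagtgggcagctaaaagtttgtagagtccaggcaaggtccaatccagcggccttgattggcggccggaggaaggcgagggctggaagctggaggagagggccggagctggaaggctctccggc
Tgfbi: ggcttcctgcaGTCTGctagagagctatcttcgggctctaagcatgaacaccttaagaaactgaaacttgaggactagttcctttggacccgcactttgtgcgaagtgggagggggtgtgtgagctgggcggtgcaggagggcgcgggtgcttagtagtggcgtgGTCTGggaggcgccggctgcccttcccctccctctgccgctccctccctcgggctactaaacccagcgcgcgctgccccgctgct
The Tgfbr2 window held 1 such match, 160 to 156 bases before the start. The Tgfbi window held 2, at 239 to 235 and 85 to 81 bases before the start, both on the opposite strand. A match to these 5 letters was found in 42.2% of all 32851 promoter windows of this length, so neither window stands out by holding one. Neither window held a match to the AP-1 site TGANTCA, to the NF-kB consensus or to the TATA box TATAAA, which occurred in 6.75%, 7.25% and 12.4% of all windows. These are letter matches only.

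Of the ligands, Tgfb3 (ENSMUSG00000021253) had the largest difference among the 10 genes. It had 336, 347 and 344 CPM in Control (libraries 1, 2 and 3, in this order here and below) and 153, 136 and 148 CPM in TNF. The groups lay far apart, and the libraries within each group lay close together. Its log2 fold change was -1.23 ± 0.089 (SE), or 2.35 times lower in TNF, with an adjusted p of 1.57e-05 by edgeR.

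Tgfb1 (ENSMUSG00000002603), the ligand most often studied in inflammation and bone, had 105, 127 and 107 CPM in Control and 131, 104 and 156 CPM in TNF. The groups overlapped, since TNF library 2 lay below every Control library and TNF library 3 above every one. It was not called (log2 fold change 0.20 ± 0.15 SE, adjusted p = 0.329 by edgeR), and the 95% interval of the fold change ran from 0.908 to 1.46. With a covariate for the 18S share (log2) the fold change on the log2 scale was 0.32 with an adjusted p of 0.0137 by edgeR, and without library 2 of both groups it was 0.45 with 0.00456. Without TNF library 3 it was 0.054. The call on Tgfb1 therefore depends on how these libraries are treated.

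Tgfb2 (ENSMUSG00000039239) had 168, 172 and 161 CPM in Control and 151, 146 and 140 CPM in TNF. Every TNF library lay below every Control library, which was the case in one direction or the other for 48.7% of all genes tested and for 6 of these 10. The difference missed the threshold (log2 fold change -0.20 ± 0.080 SE, adjusted p = 0.0944 by edgeR), and it was not called under any of 18 alternative settings. The 95% interval of its fold change was 0.769 to 0.991.

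Levels were compared between genes as TPM, which allow for transcript length. In Control the ligand order was Tgfb3 (180 ± 10.7 TPM), Tgfb1 (96.5 ± 3.80 TPM) and Tgfb2 (62.8 ± 5.13 TPM), with no overlap between neighbours. In TNF it was Tgfb1 (108 ± 27.8 TPM), Tgfb3 (73.3 ± 10.2 TPM) and Tgfb2 (51.6 ± 5.22 TPM), and the lowest Tgfb1 value, 78.3 TPM in library 2, lay below the highest Tgfb3 value, 81.0 TPM in library 1. Within library 2, however, Tgfb3 had 61.8 TPM, so that Tgfb1 exceeded Tgfb3 inside each TNF library. In each Control library the opposite held.

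A share of the summed ligand TPM does not depend on scaling between libraries. Tgfb1 made up 27.2%, 30.8% and 27.4% of the ligand TPM in Control and 44.8%, 41.9% and 51.0% in TNF. Tgfb3 went the other way, with 53.4%, 51.4% and 54.4% in Control and 32.4%, 33.1% and 29.5% in TNF. The share of Tgfb2 was 18.5 ± 0.852% and 22.4 ± 2.77%. For each ligand the groups did not overlap, and the exact two-sided permutation test gave p = 0.1, the smallest that 3 against 3 libraries allow. The same p was found for each of the 6 ratios and sums computed in this family, and Benjamini-Hochberg adjustment leaves it at 0.1, so none passes 0.05. The 3 shares add up to a whole, so they are not separate results. The summed ligand TPM was 352, 327 and 341 in Control and 250, 187 and 262 in TNF, the lowest being the library rich in 18S, whose 18S row took 19.8% of its TPM.

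**Figure D2:**
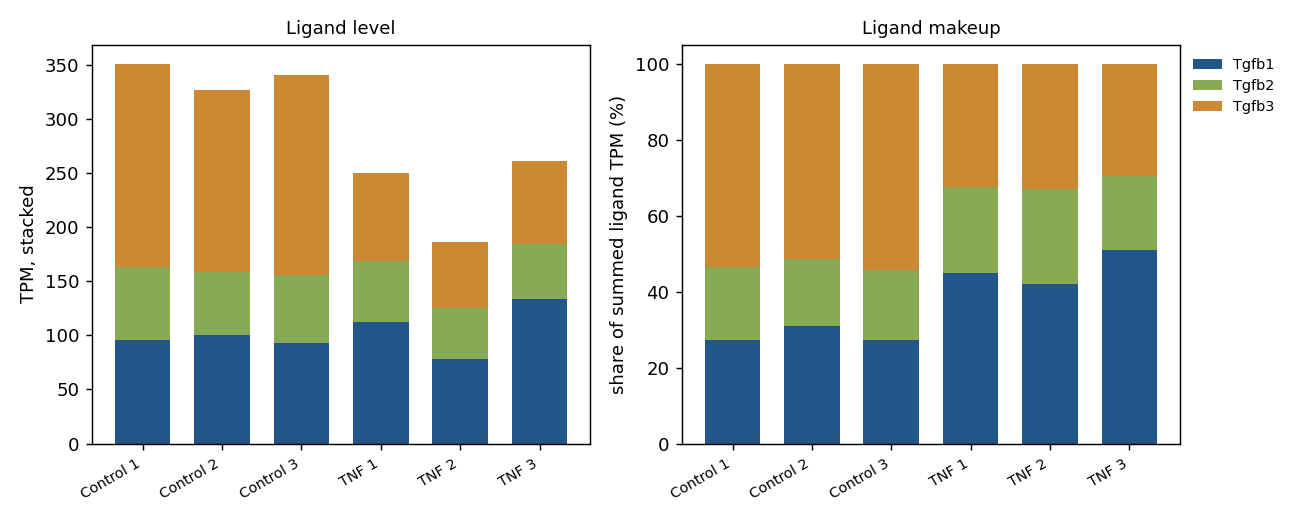
Left, TPM of Tgfb1, Tgfb2 and Tgfb3 stacked for each library; right, the share of each ligand in that sum, in percent. Tgfb3 is the largest part in the 3 Control libraries (51.4% to 54.4%) and Tgfb1 in the 3 TNF libraries (41.9% to 51.0%).

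Among the receptors, both signalling chains were lower in TNF. Tgfbr2 (ENSMUSG00000032440), the chain that binds the ligand first, had 567, 630 and 553 CPM in Control and 299, 289 and 304 CPM in TNF. The TNF libraries lay close together and below all Control libraries. The fitted TNF level was 0.510 of that in Control. The log2 fold change was -0.97 ± 0.098 (SE) with an adjusted p of 0.000111 by edgeR.

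Tgfbr1 (ENSMUSG00000007613), the kinase that phosphorylates the receptor SMADs, had 62.2, 68.5 and 50.9 CPM in Control and 35.9, 40.0 and 39.4 CPM in TNF. The groups did not overlap, although the Control libraries spread more widely than the TNF libraries. The log2 fold change was -0.66 ± 0.12 (SE), adjusted p = 0.00262 by edgeR.

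Tgfbr3 (ENSMUSG00000029287), the co-receptor betaglycan, had 49.5, 60.3 and 45.0 CPM in Control and 56.3, 67.0 and 56.5 CPM in TNF. Library 2 was the highest of both groups, and Control library 2 exceeded TNF libraries 1 and 3. The gene was not called (log2 fold change 0.21 ± 0.12 SE, adjusted p = 0.218 by edgeR; 95% interval of the fold change 0.953 to 1.41), but without Control library 2 it was, at 0.34 with an adjusted p of 0.0367 by edgeR.

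Tgfbr2 was the most abundant of the 10 genes per length in Control, at 203 ± 7.71 TPM, and stood beside Tgfb1 in TNF at 98.3 ± 11.1 TPM, where their ranges overlapped. Tgfbr1 was at 18.2 ± 2.19 and 11.0 ± 0.670 TPM and Tgfbr3 at 15.0 ± 1.22 and 16.9 ± 0.690 TPM. In Control, each neighbouring pair along the order Tgfbi, Tgfbr1, Tgfbr3 and Smad7 overlapped in range, while Tgfbi lay above both Tgfbr3 and Smad7 in every library, and Tgfbr1 above Smad7. In TNF, Tgfbr3 lay above Tgfbr1 in each library, with Smad7 between them. The TPM ratio of Tgfbr2 to Tgfbr1 was 10.6, 10.5 and 12.6 in Control and between 8.21 and 9.52 in TNF. On the log2 scale that ratio differed by -0.33 (exact permutation p = 0.1, 3 against 3 libraries). The TPM ratio of Tgfbr3 to Tgfbr2 was 0.0736, 0.0790 and 0.0686 in Control and 0.157, 0.206 and 0.159 in TNF, with the same exact p of 0.1.

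Smad3 (ENSMUSG00000032402), the transcription factor that carries the signal to DNA, had 130, 155 and 134 CPM in Control and 101, 95.0 and 103 CPM in TNF. The TNF libraries lay close together and below all Control libraries. The log2 fold change was -0.49 ± 0.094 (SE), adjusted p = 0.00421 by edgeR, and it was the smallest of the called differences among the 10 genes. Smad3 was at 48.3 ± 1.83 TPM in Control and 32.9 ± 3.26 TPM in TNF.

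Neither feedback inhibitor was called. Smad7 (ENSMUSG00000025880), the inhibitory SMAD that brings ubiquitin ligases to the receptor and is itself induced by TGF-β, had 22.9, 23.0 and 24.9 CPM in Control and 25.3, 26.0 and 23.2 CPM in TNF. The groups overlapped, and the log2 fold change of 0.074 ± 0.085 (SE) had an adjusted p of 0.540 by edgeR. The 95% interval of the fold change began at 0.920. The sign of the Smad7 difference flipped with library totals (-0.013) and on log2 TPM (-0.030 to -0.032), so it is given no direction.

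Skil (ENSMUSG00000027660), which encodes the corepressor SnoN, had 23.8, 29.6 and 19.8 CPM in Control and 27.7, 32.3 and 26.1 CPM in TNF. Library 2 was the highest of both groups here too, as for Tgfbr3. Skil was not called (log2 fold change 0.23 ± 0.15 SE, adjusted p = 0.268 by edgeR; 95% interval of the fold change 0.926 to 1.49). Without Control library 2 its log2 fold change was 0.40 with an adjusted p of 0.0383 by edgeR. At 7.02 ± 1.55 and 8.59 ± 0.243 TPM it was the least abundant of the 10 genes in both groups.

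Tgfbi (ENSMUSG00000035493), a secreted matrix protein named for its induction by TGF-β, was the only one of the 10 genes called higher. It had 31.4, 34.3 and 30.8 CPM in Control and 67.9, 60.5 and 68.3 CPM in TNF. Each TNF library lay above every Control library, and TNF library 2 was the lowest of the TNF libraries. The log2 fold change was 1.03 ± 0.086 (SE), adjusted p = 3.81e-05 by edgeR. In TPM, Tgfbi rose from 19.7 ± 0.609 to 38.9 ± 5.49, and its range overlapped with that of Smad3 in TNF. Inside each TNF library, however, Tgfbi lay above Smad3, while in each Control library it lay below.

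**Figure D3:**
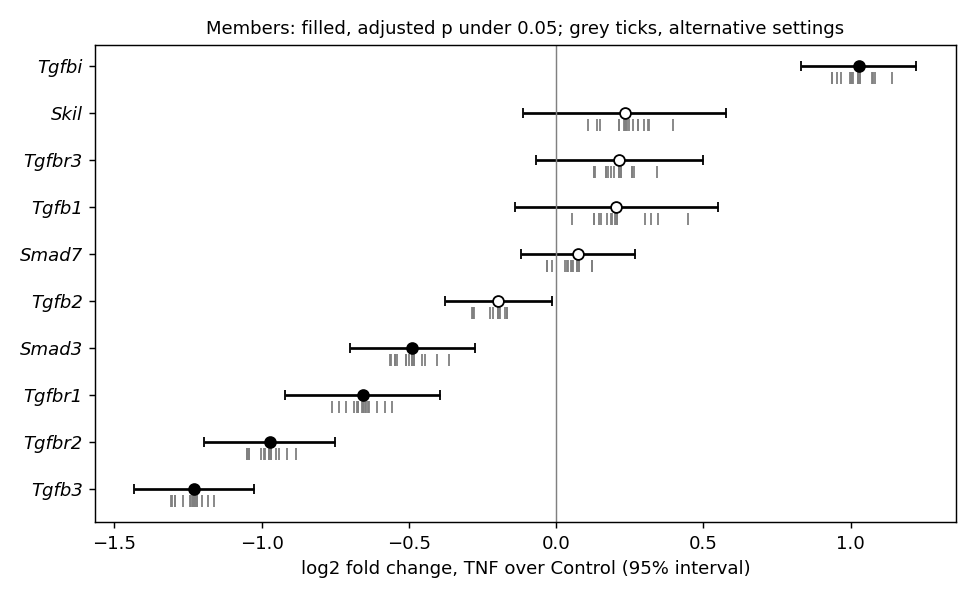
Log2 fold change of TNF over Control for each of the 10 genes with its 95% interval (edgeR); filled points passed an adjusted p of 0.05, and grey ticks give the 18 alternative settings. Tgfb3 (-1.23), Tgfbr2 (-0.97), Tgfbr1 (-0.66) and Smad3 (-0.49) stay below 0 and Tgfbi (1.03) above 0 under all of these, while the ticks of Smad7 fall on both sides.

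Tgfb1 and Tgfbi are also expressed by macrophages, which can remain in marrow stromal cultures. All 18 macrophage and monocyte markers searched for had reads, and their summed level was 2378, 3515 and 2343 CPM in Control and 2273, 2384 and 2366 CPM in TNF. In TPM the sum was 3644, 4890 and 3493 in Control and 2827, 2512 and 3035 in TNF, where every TNF library lay below every Control library. Control library 2 was the highest in these sums. In CPM it was also the highest Control library in 9 of the 10 TGF-β genes, all but Smad7. In TPM it was the highest Control library only for Tgfb1, Tgfbr3 and Smad3. Of these 18 markers 4 were called higher (Csf1r, Cd14, Cybb and Spi1), beside 16.0% of all genes, and 7 lower, beside 16.4%. The median difference of the markers was -0.41 on the log2 scale. The complement gene C1qc was at 167 ± 39.2 and 60.6 ± 6.17 CPM, and Cybb, a subunit of the phagocyte oxidase, at 82.2 ± 18.5 and 394 ± 44.8 CPM. Csf1r was called in 10 of the 18 alternative settings only, and Spi1 and Aif1 in 14 each. The part of macrophages in the values of Tgfb1 and Tgfbi was not tested. Of the differences called, those of Tgfb3, Tgfbr1, Tgfbr2, Smad3 and Tgfbi were also called without Control library 2.

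All 12 stromal markers were listed, summing to between 6922 and 7878 TPM in Control and between 4607 and 5338 TPM in TNF. Most of that sum was Col1a2, at 3274 ± 61.6 and 1912 ± 150 TPM, and Col1a1, at 2369 ± 308 and 1089 ± 75.6 TPM. These collagen genes are also among the TGF-β response genes below. Uncalled were, among others, Pdgfrb at 366 ± 11.4 and 351 ± 22.0 CPM and Prrx1 at 477 ± 40.5 and 405 ± 8.92 CPM. Of the 12, 4 were called higher, beside 16.0% of all genes, and 3 lower, beside 16.4%. The higher ones were Vcam1 (log2 fold change 3.07), Cd44 (1.27), Pdgfra (1.03) and Lepr (1.68). Lepr was low in level, at 0.475 ± 0.197 and 1.55 ± 0.330 CPM. The lower ones were Col1a1 (-1.06), Col1a2 (-0.72) and Thy1 (-0.92), the last in 12 of the 18 alternatives only. Only 2 of 7 endothelial, 1 of 8 lymphoid and 1 of 8 neutrophil or erythroid markers were among the genes listed, with summed levels of at most 0.381, 0.256 and 5.82 TPM in any library. Of 5 megakaryocyte and platelet markers 4 were listed, summing to between 54.6 and 72.2 TPM in Control and between 153 and 219 TPM in TNF, where Pf4, a chemokine that macrophages also make, rose from 10.8 ± 3.08 to 37.3 ± 3.94 CPM while Itga2b, which defines the platelet lineage, fell from 5.57 ± 0.263 to 3.50 ± 0.468 CPM. Of 7 osteoclast markers 5 were listed, summing to between 79.4 and 90.3 TPM in Control and between 59.2 and 66.4 TPM in TNF. Most of that sum was Ctsk, at 72.3 ± 4.59 and 54.3 ± 3.20 TPM. Ctsk and Atp6v0d2 were called lower, and Dcstamp was called higher, at 0.453 ± 0.0622 and 1.94 ± 0.0783 CPM.

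Other genes of the pathway were taken as lists, and their counts are set beside the 16.0% of all genes tested that were called higher and the 16.4% called lower. Among genes of the latent complex and its activation, 4 of 19 tested were higher and 5 lower (median log2 fold change -0.16), not far from those shares. Mmp9, a protease that can release latent TGF-β, rose from 1.60 ± 0.536 to 41.8 ± 2.85 CPM. Lrrc32, which tethers the latent complex to the cell surface, rose from 85.8 ± 8.01 to 123 ± 9.93 CPM. Thbs1 (thrombospondin), an activator of latent TGF-β, fell from 8007 ± 1720 to 2499 ± 140 CPM, the integrin subunits Itgb3 and Itgb5 fell by 1.12 and 0.74 on the log2 scale, and the latent TGF-β binding protein Ltbp3 fell by 0.62. Ltbp2 (0.67) and Bmp1 (0.35) were the other higher genes. The higher count was 2 without Control library 1, Control library 3 or TNF library 1, since Bmp1 and Ltbp2 were then not called, Ltbp2 nor without TNF library 2 (adjusted p by edgeR up to 0.0871 and 0.0880). Ltbp3 was not called without TNF library 1 (0.0503).

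Of genes for proteins that bind TGF-β or its complex outside the cell, 7 of 10 tested were lower (16.4% of all genes) and 1 was higher (16.0%), with a median of -0.76. Aspn (asporin), which binds TGF-β, fell from 15.5 ± 4.06 to 0.831 ± 0.0653 CPM. The proteases Htra3 and Htra1 fell by 1.65 and 0.71, and Lum (lumican) by 1.13. Fstl1, a secreted glycoprotein, rose from 811 ± 23.5 to 1363 ± 113 CPM. Dcn (decorin) was at 243 ± 25.4 and 207 ± 23.9 CPM and was not called. The lower count was 6 without TNF library 1, 2 or 3, since Bgn (-0.81) was then not called (adjusted p by edgeR 0.115, 0.0541 and 0.0859).

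Of receptor partners 2 of 10 were higher (16.0% of all genes) and 4 lower (16.4%), with a median of -0.22. Acvr1b, a type I receptor for activin, rose from 9.80 ± 0.218 to 20.5 ± 2.79 CPM, and Acvrl1, a type I receptor best known in endothelium, from 12.8 ± 0.444 to 24.2 ± 2.92 CPM. Tgfb1i1 (-0.52), a focal adhesion adaptor induced by TGF-β, Cav1 (-0.73), the caveolar coat protein, the endocytic adaptor Dab2 (-0.35) and Acvr1 (-0.33) fell. The lower count was 2 without TNF library 1, when Dab2 and Acvr1 were not called (adjusted p by edgeR 0.0662 and 0.0520). Dab2 was not called without TNF library 3 either (0.0505), nor Acvr1 without Control library 1 (0.0543).

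The SMADs that act with Smad3 were not called. Smad2 was at 62.2 ± 2.88 and 64.8 ± 4.18 CPM and Smad4 at 82.9 ± 3.42 and 82.0 ± 3.57 CPM. Of 13 other SMADs and coactivators 2 were higher and 1 lower, no more than the 16.0% and 16.4% over all genes, with a median of 0.058. Smad9, of the BMP branch, fell from 11.2 ± 0.745 to 5.21 ± 0.666 CPM. Zeb2 (0.44) and Zeb1 (0.36), repressors of epithelial genes, rose, but neither was called without TNF library 1 (adjusted p by edgeR 0.0523 and 0.0752) or with library totals (0.0933 and 0.184), and Zeb1 was not called without Control library 1, Control library 3 or TNF library 3 either (up to 0.0792).

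Other negative regulators went both ways, with 6 of 16 higher (16.0% of all genes), 5 lower (16.4%) and a median of 0.071. Smurf1, a ubiquitin ligase that acts with Smad7 on the receptor, rose from 68.4 ± 0.542 to 120 ± 1.56 CPM, and Tgif1, a corepressor of SMADs, from 50.1 ± 4.17 to 96.2 ± 6.91 CPM. Hipk2 (0.90) and Sik1 (0.77), both kinases, also rose. Wwp1, another ubiquitin ligase, fell from 70.4 ± 5.95 to 40.5 ± 0.709 CPM. Ski (-0.38), the corepressor closest to Skil, the decoy receptor Bambi (-0.66) and Pmepa1 (-0.37), which sequesters receptor SMADs, fell. Smurf2, the paralog of Smurf1, was at 179 ± 4.94 and 172 ± 3.62 CPM and was not called.

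None of 8 tested genes on the list for the activin branch, which also signals through Smad3, was called, beside 32.4% of all genes. edgeR found 0 at an unadjusted p under 0.05, and DESeq2 and limma-voom called 0. The list does not hold Acvr1b, the type I receptor for activin that was called higher among the receptor partners. Inhba, the activin A subunit, was at 176 ± 21.5 and 201 ± 27.9 CPM, and Fst, the activin-binding follistatin, at 65.4 ± 9.77 and 77.8 ± 15.0 CPM. The log2 fold changes of the 8 genes lay between -0.14 and 0.25.

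**Figure D4:**
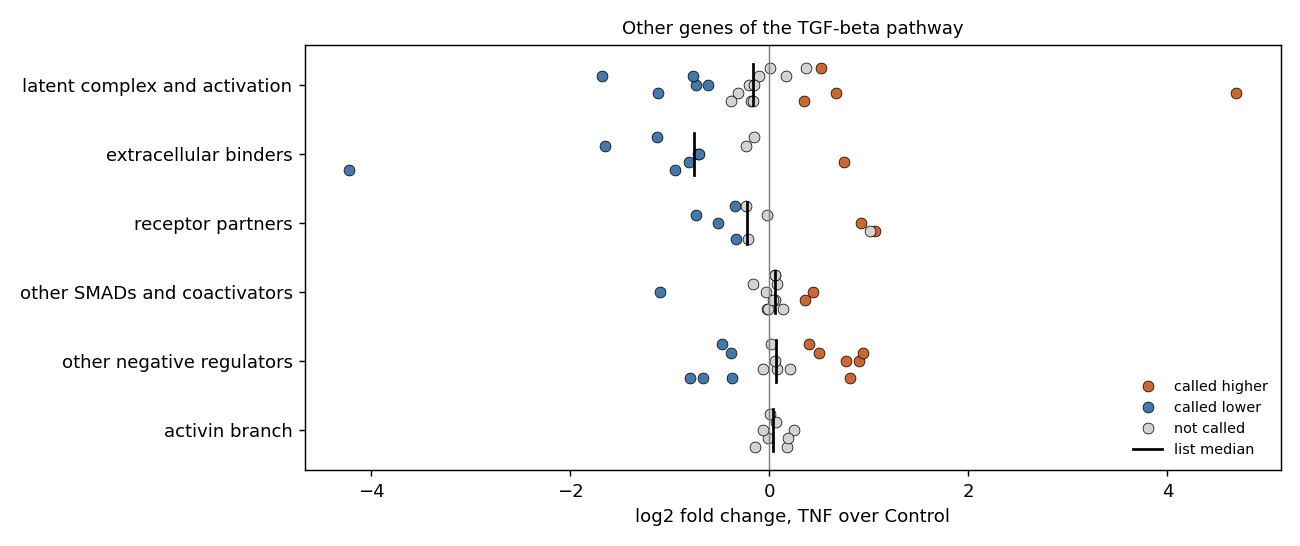
Log2 fold change of TNF over Control (x axis) for every tested gene of 6 pathway lists (rows), coloured by the edgeR call, with a black line at each list's median; vertical offsets within a row only separate the points. Extracellular binders have the lowest median (-0.76), and all 8 genes tested of the activin branch list lie near 0 and are not called.

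Genes known to respond to TGF-β were lower in 16 of 35 tested, beside 16.4% of all genes, and higher in 8, beside 16.0% (median log2 fold change -0.40). The higher count was 12 without Control library 2. The lower count was 13 without TNF library 1, 14 without Control library 1 or TNF library 3, and 12 by limma on log2(TPM + 1). Itga11, a collagen-binding integrin of stromal cells, fell from 366 ± 28.1 to 115 ± 0.770 CPM, and Cnn1, the smooth muscle protein calponin, from 34.5 ± 3.74 to 9.62 ± 2.67 CPM. Snai2, a transcription factor of mesenchymal cells, and Has2, a hyaluronan synthase, each fell by 1.29. Angptl4, a lipase inhibitor, rose from 26.0 ± 0.313 to 197 ± 21.6 CPM and Igfbp3, which binds insulin-like growth factors, from 7.44 ± 1.44 to 35.0 ± 2.78 CPM. Junb (2.07), an AP-1 subunit, and Vegfa (1.07), an angiogenic factor, rose as well.

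Some further targets are named after their values were seen. Ccn2, a connective tissue growth factor, was at 654 ± 56.3 and 495 ± 13.6 CPM, a log2 fold change of -0.40 (adjusted p = 0.0187 by edgeR), and was not called with library totals or without Control library 1, TNF library 1 or TNF library 3 (0.0549 to 0.0874). The contractile genes Acta2 (-0.67) and Tagln (-0.69) fell.

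**Figure D5:**
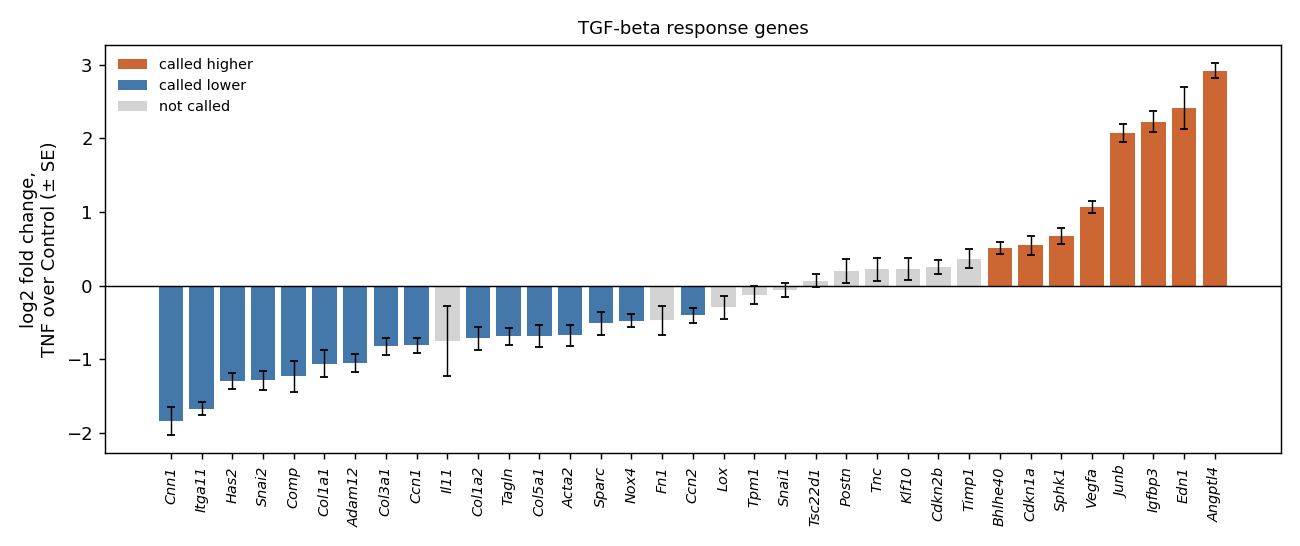
Log2 fold change of TNF over Control (± SE, edgeR) for the 35 TGF-β response genes, ordered by value and coloured by call. The 16 genes called lower reach from -0.40 (Ccn2) to -1.84 (Cnn1) and the 8 called higher from 0.51 (Bhlhe40) to 2.92 (Angptl4).

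Genes with the pattern most like those of Tgfb3 and Tgfbi were sought by the Pearson correlation of log2 CPM over the 6 libraries, among genes with a mean of at least 5 CPM. For Tgfb3 these were Ackr4, Porcn and Mcam, each with r = 0.999. For Tgfbi they were Tgm2, Hvcn1 and St3gal1, also with r = 0.999 each. These values describe 6 points in 2 groups, so they mostly reflect the difference between the groups. The log2 fold changes of Ackr4, Porcn and Mcam were -2.36, -1.83 and -1.46, and those of Tgm2, Hvcn1 and St3gal1 were 1.72, 1.86 and 1.12.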

How the data were processed

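RNA was sequenced from 6 libraries (3 Control, 3 TNF), grouped by their titles. The submitters' processing notes name Trim Galore, STAR, StringTie, Salmon and build GRCm39, with no versions or settings. The authors deposited expected counts per gene as whole numbers without gene names, under a title line that calls them normalized and a column name that calls them raw. Totals differ between libraries, so they were used as counts. The authors also deposited TPM with gene symbols. Count lines were joined to TPM lines by position; the 260 zeros of both fell together. Per gene, the log2 ratio of count to TPM varied between libraries with a median SD of 0.0275, and of 0.413 when lines were moved by 1.

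The test was edgeR's (version 4.0.16, R 4.3.3; filterByExpr, TMM factors, quasi-likelihood F test, group as the only term, two-sided), which was tested on simulated data. CPM use the TMM factors. The SE is the log2 fold change over the square root of F. Totals of 45629973 to 77142418 counts put the 10 genes at 1017 counts or more in each library. Ratios of TPM were compared by exact permutation. Alternatives were RLE factors, library totals, DESeq2 1.42.0, limma-voom and limma 3.58.1 on log2(TPM + 1) or log2(TPM + 0.1), other filters (none, 1 CPM, 1 TPM in 3 libraries), the 18S share as covariate, a replicate block and leaving out libraries. Libraries are named by replicate number. The genes, lists and alternatives were chosen with earlier results of these data known. Named were all 10 genes, up to 4 called genes per list and direction with the smallest adjusted p, Nfkbia, Tnfaip3 and Ccl2, and 3 genes like the most changed ones; others, such as uncalled list genes and markers, were named after their values were seen. A gene of the response list is not reported here and was left out of its counts.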

Additional observations from a re-analysis of the deposited data

How the results depend on the processing

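Tgfb3, Tgfbr1, Tgfbr2, Smad3 and Tgfbi kept their direction and their call under all 18 alternative settings. The 10 genes gave 5 calls, and 8 without library 2 of both groups, when Tgfb1, Tgfbr3 and Skil were called higher. Leaving out 1 library at a time gave 5 to 7. Smad7 was not called under any setting and had log2 fold changes of -0.013 with library totals, -0.030 with limma on log2(TPM + 1), with or without a minimum of 1 TPM, and -0.032 on log2(TPM + 0.1). Over all genes 5039 were called, 3664 by limma on log2(TPM + 1), 3633 on log2(TPM + 0.1) and 3338 on log2(TPM + 1) with at least 1 TPM. With 1 library less the count was 3449 to 4795. The Tgfb1 share of ligand TPM differed by 17.5 percentage points, by 12.6 from CPM, which is not per length, and by 14.9 to 19.5 with 1 library less. Other SMADs and coactivators had 3 calls, 1 with library totals, and 1 to 3 with 1 library less. Other negative regulators had 11 calls and 7 by limma on either log2(TPM + 1) or log2(TPM + 0.1); the cause was not tested. Of the genes named from the lists, limma on log2(TPM + 1) did not call Lrrc32 (adjusted p = 0.0529), Bgn (0.0586), Pmepa1 (0.0632), Acta2 (0.0664), Dab2 (0.0677), Bmp1 (0.0798), Ccn2 (0.0828) or Zeb1 (0.199). Library totals did not call Bmp1 (0.214 by edgeR). The labels do not say whether the replicate numbers pair the samples. Deviations of same-numbered libraries correlated at -0.01, -0.30 and -0.22 across genes, and those of different-numbered libraries at -0.23 to 0.36. Such deviations also carry traits of single libraries, such as the 18S share, so they cannot decide whether the numbers mark a shared animal or day. With the replicate block 3980 genes and 5 of the 10 were called, while Zeb1, Ccn2 and Col1a2 were not (adjusted p = 0.0595, 0.0561 and 0.0604 by edgeR). The sign-flip test of the Tgfb1 share gave an exact p of 0.25, the smallest for 3 pairs. With 3 libraries a group, the 95% intervals of the uncalled genes of the 10 leave room for changes in either direction, except for Tgfb2, whose interval lies below 1.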
